A study of Mus musculus with 6 samples.

Results

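The genes described here are 37 genes of hepatic fatty acid oxidation and ketone body formation, chosen by symbol from the 20140 genes of the raw count table. All 37 were listed in the table and all 37 passed the filter on low counts, which left 16370 genes to test. They were taken in 8 groups by role, with mitochondrial, peroxisomal and thioesterase genes apart. Poly(A) RNA of whole liver had been sequenced from 6 mice on day 21, 2 per group. The sham mice had surgery with PBS and no tumor. In the intra-C mice CT26 cells, a mouse colorectal carcinoma line, had been implanted into the cecum, which is the premetastatic model of the study, and in the intra-S mice CT26 cells had been injected into the spleen, which gives liver metastases. The labels name these groups without the route of injection, which is taken from the study's description of its models. The mice were BALB/c, between 6 and 10 weeks of age when bought and with no engineered allele named in the labels. Tumor site and tumor burden of the liver changed together, and both tumor groups were compared with the same sham livers. The labels do not say whether the livers were handled in separate batches. The libraries held between 32838321 and 43368309 counts. Levels are given as CPM (the count scaled to the size of the library) after TMM scaling, for liver 1 and liver 2 of each group in that order, and levels of different genes are compared only as TPM, which is scaled by gene length. In whole liver, fewer cells of a type and less RNA per cell cannot be told apart.

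Fatty acids enter hepatocytes, are bound by carrier proteins and are activated to acyl-CoA. Long chains pass into mitochondria as carnitine esters and are shortened there by repeated dehydrogenation, hydration, dehydrogenation and thiolysis, and the electrons pass through the electron transfer flavoprotein to the respiratory chain. Very long and branched chains and dicarboxylic acids are shortened in peroxisomes. Acyl-CoA thioesterases free the fatty acid again, omega-oxidation by the Cyp4a enzymes makes dicarboxylic acids, and in fasting the acetyl-CoA left over is turned into ketone bodies. Many of these genes are known targets of PPARα, the nuclear receptor that fatty acids activate.

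Compared with sham livers, 6 of the 37 genes fell in the intra-C livers and 10 of the 37 fell in the intra-S livers, at an edgeR adjusted p under 0.05. The background was 2.38% of all tested genes lower in intra-C and 3.95% lower in intra-S livers. No member passed the test upward in either comparison, where 4.92% and 6.78% of all genes were higher, and at an unadjusted p under 0.05 there were 0 higher and 20 lower members in intra-C (15.2% and 11.8% of all genes) and 1 higher and 21 lower in intra-S (17.2% and 13% of all genes). With DESeq2 the numbers of lower members were 12 and 17, where 6.78% and 8.95% of all genes were lower, and of higher members 0 and 0, where 10.4% and 12.6% were higher. The 6 genes called in intra-C were Acads, Ehhadh, Acaa1b, Acot1, Acot3 and Acot4, and all 6 were among the 10 called in intra-S, where Cpt2, Acad11, Pex11a and Acsl1 were added. The comparisons share their sham livers, so these lists are not independent of each other. The log2 fold change was below 0 for 33 of the 37 genes in each comparison. Its median was -0.65 in intra-C and -1.18 in intra-S, against medians over all tested genes of 0.01 and 0.04. Both intra-C livers lay below both sham livers for 28 members and above them for 2, where 34% and 34.4% of all genes did so. Both intra-S livers lay below both sham livers for 31 members and above them for 1, against 30% and 30.4% of all genes. With either sham liver left out, no gene of the whole table passed the test in either comparison. Without either intra-C liver, Acot3 alone of the members passed in intra-C. Without intra-S liver 1 or 2 there were 22 or 21 lower members in intra-C (12% and 12% of all genes) and 17 or 21 in intra-S (6.93% and 15.4%), and with only the 2 groups fitted there were 22 and 6 (14.2% and 0.734%).

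**Figure D1:**
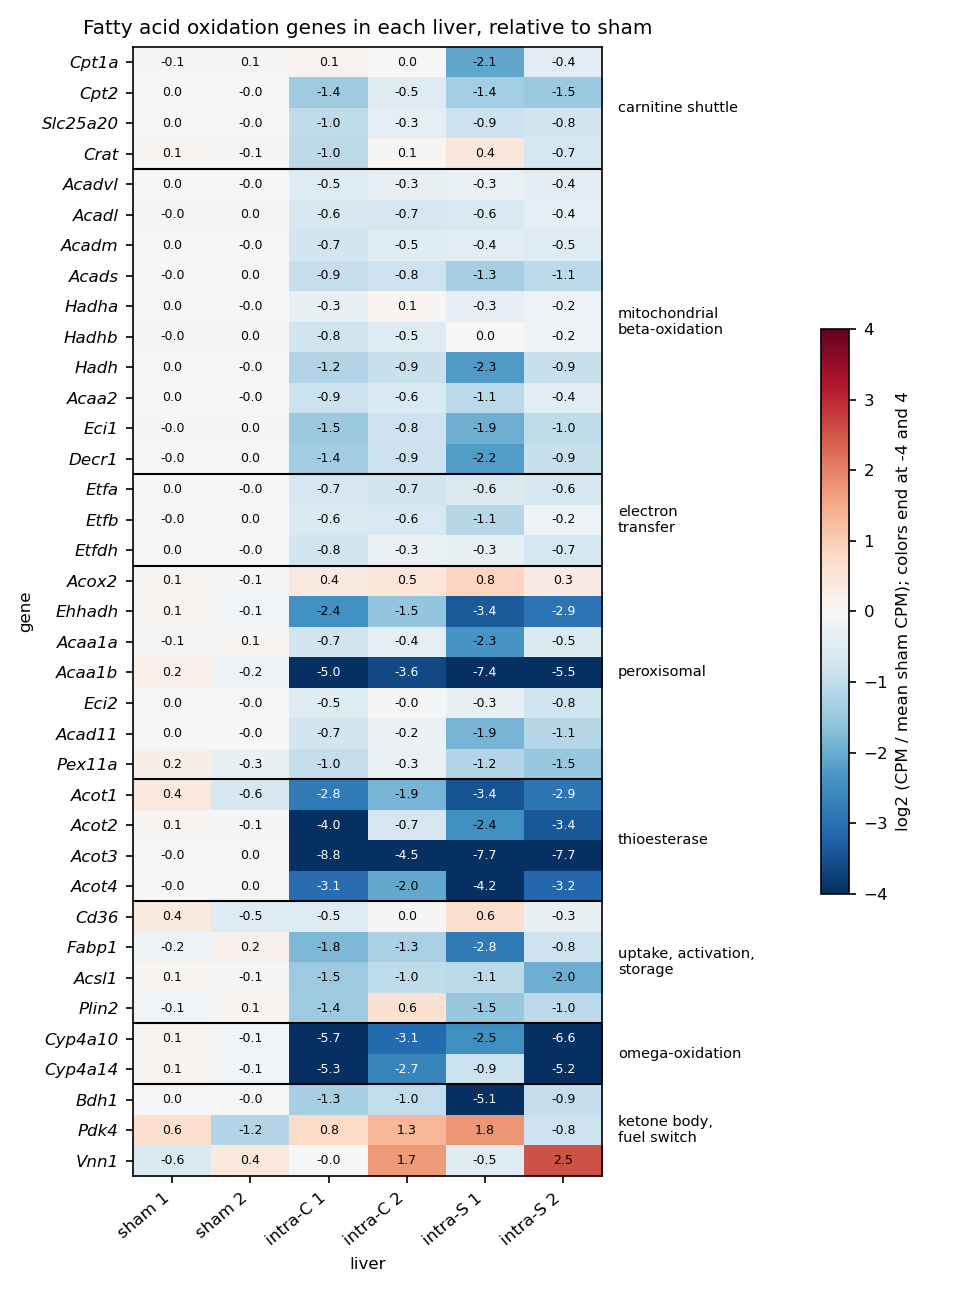
Heat map of the 37 genes (y axis, grouped by role) in the 6 livers (x axis), as log2 of the CPM over the mean CPM of the sham livers, with the value in each cell and colors that end at -4 and 4. Acot3 and Acaa1b are dark in all 4 livers with tumors, Bdh1 is dark in intra-S liver 1 only, and Acox2 is above 0 in all 4 livers with tumors.

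**Figure D2:**
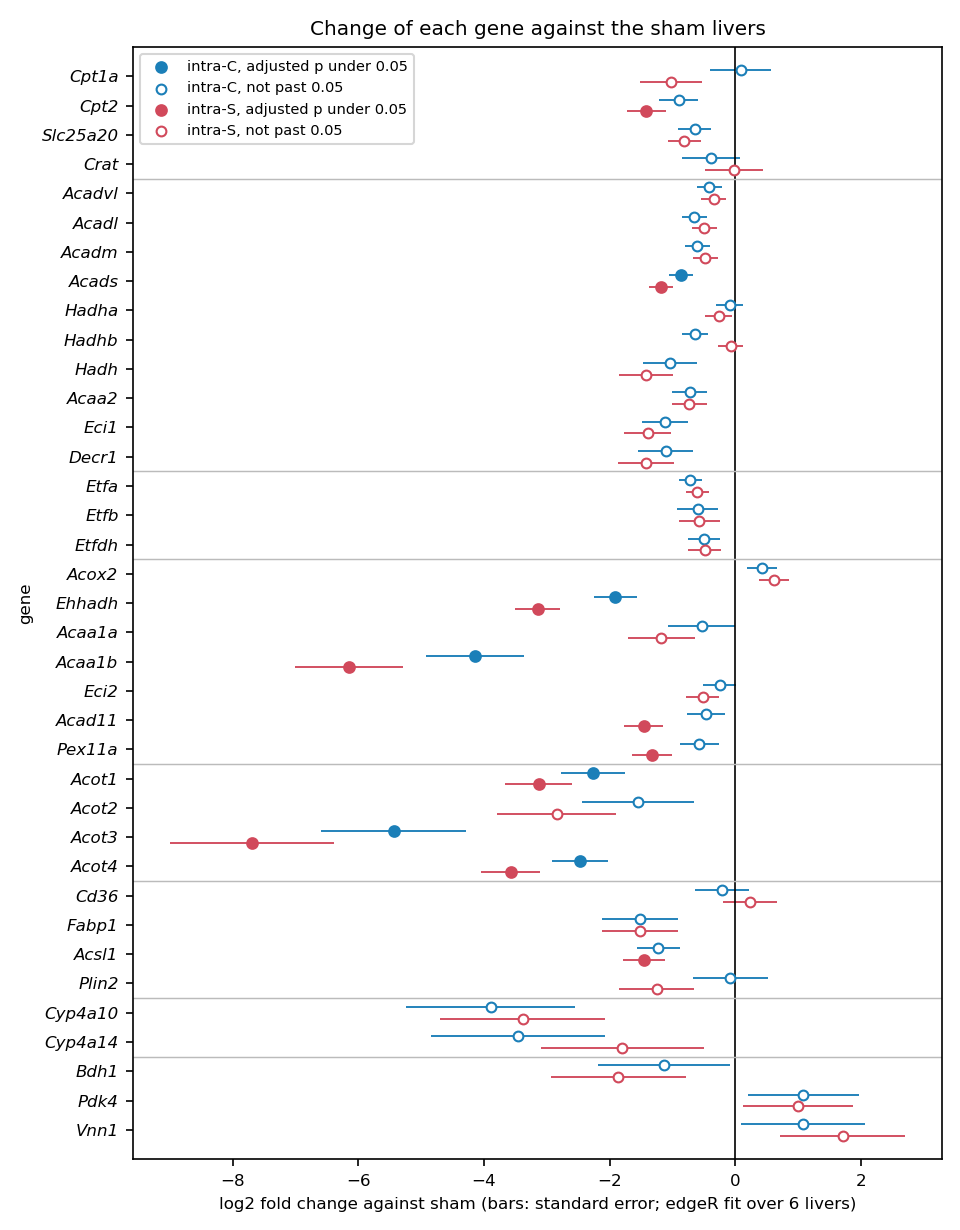
Log2 fold change against sham (x axis) of each of the 37 genes (y axis), with its standard error from the edgeR fit over 6 livers. Filled points passed an adjusted p of 0.05, which 6 genes did in intra-C (blue) and 10 in intra-S (red), all to the left of 0.

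The carnitine shuttle moves long chains into mitochondria. Cpt1a makes the carnitine ester at the outer membrane, the step at which malonyl-CoA controls entry. It had 331 and 361 CPM in sham, 382 and 354 in intra-C and 82.2 and 259 in intra-S livers, so that the intra-C livers overlapped the sham livers and both intra-S livers were below them. Its log2 fold change was 0.09 (SE 0.49, adjusted p = 0.929) in intra-C and -1.02 (SE 0.49, adjusted p = 0.220) in intra-S, and the intra-C value turned negative under other scalings, at -0.17 with library size alone and -0.10 with TPM. Cpt2, which turns the ester back to acyl-CoA at the inner membrane, had 116 and 115 CPM in sham, 42.9 and 80.4 in intra-C and 44.7 and 41.5 in intra-S livers. It fell 2.67-fold in intra-S (log2 fold change -1.42, SE 0.31, adjusted p = 0.039) and its value in intra-C was -0.90 (SE 0.31, adjusted p = 0.127). Slc25a20, the carrier between both enzymes, did not pass the edgeR test at -0.65 (adjusted p = 0.172) and -0.81 (adjusted p = 0.095). DESeq2 called it lower in intra-S, and both tumor groups lay below the sham livers, as for 34% and 30% of all genes. Crat, which makes acetylcarnitine, had overlapping livers in both comparisons, from 38.2 to 42.0 CPM in sham, 19.6 to 41.7 in intra-C and 24.6 to 54.5 in intra-S.

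Of the 10 mitochondrial beta-oxidation genes, 1 fell in each comparison, the same gene, Acads, where 2.38% and 3.95% of all genes fell. At an unadjusted p under 0.05, 8 and 7 of the 10 were lower (11.8% and 13% of all genes), and DESeq2 called 5 and 4 lower (6.78% and 8.95%). The medians of the 10 were -0.69 in intra-C and -0.61 in intra-S, and all 10 were below 0 in both. Acads, the dehydrogenase for short chains, had 102 and 103 CPM in sham, 54.4 and 57.9 in intra-C and 41.0 and 49.2 in intra-S livers. The livers of each group were close together and the groups did not overlap, and the gene fell 1.82-fold in intra-C (log2 fold change -0.86, SE 0.19, adjusted p = 0.048) and 2.27-fold in intra-S (-1.18, SE 0.19, adjusted p = 0.019). The dehydrogenases for longer chains, Acadvl, Acadl and Acadm, had log2 fold changes between -0.65 and -0.41 in intra-C and between -0.49 and -0.35 in intra-S. None was called by edgeR, whereas DESeq2 called Acadl and Acadm lower in intra-C. Acadl, as an example, had 248 and 260 CPM in sham, 163 and 160 in intra-C and 166 and 195 in intra-S livers. Hadha and Hadhb encode both subunits of the trifunctional protein, which carries out the last 3 steps on long chains. Their genes lie head to head on chromosome 5 and 272 bases apart. Hadha had 298 and 296 CPM in sham, 244 and 316 in intra-C and 238 and 258 in intra-S livers. Hadhb had 165 and 174 CPM in sham, 98.5 and 118 in intra-C and 172 and 150 in intra-S livers. Neither was called by edgeR, whereas DESeq2 called Hadhb lower in intra-C. The TPM ratio of Hadha to Hadhb was 3.50 and 3.30 in sham, 4.80 and 5.17 in intra-C and 2.69 and 3.33 in intra-S livers, so that it was highest in both intra-C livers. Hadh, the hydroxyacyl-CoA dehydrogenase for shorter chains, Eci1 and Decr1, which prepare unsaturated chains, had log2 fold changes between -1.12 and -1.04 in intra-C and between -1.42 and -1.40 in intra-S, with edgeR adjusted p between 0.115 and 0.179 and between 0.062 and 0.089. DESeq2 called Eci1 lower in both comparisons and Hadh and Decr1 in intra-S. In these 3 genes intra-S liver 1 was lower than liver 2, for example 68.5 against 176 CPM in Hadh, whose sham livers had 330 and 324. Acaa2, the mitochondrial thiolase, had 978 and 969 CPM in sham, 534 and 643 in intra-C and 457 and 717 in intra-S livers, a log2 fold change of -0.73 in both (adjusted p = 0.153 and 0.135).

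The genes of the electron transfer flavoprotein and its dehydrogenase, Etfa, Etfb and Etfdh, passed the edgeR test in neither comparison. DESeq2 called Etfa lower in both. Etfa had 359 and 357 CPM in sham, 223 and 214 in intra-C and 241 and 230 in intra-S livers, values that did not overlap with sham, and its log2 fold changes were -0.71 (adjusted p = 0.072) and -0.60 (adjusted p = 0.089). Etfb had 372 and 380 CPM in sham, 250 and 247 in intra-C and 171 and 334 in intra-S livers. Etfdh, which passes the electrons to ubiquinone, had log2 fold changes of -0.50 and -0.49. In all 3 genes both livers of each tumor group were below both sham livers. This held for 34% of all genes in intra-C and 30% in intra-S.

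The 7 peroxisomal genes held 2 that fell in intra-C, Ehhadh and Acaa1b, and 4 that fell in intra-S, these and Acad11 and Pex11a. Over all genes 2.38% fell in intra-C and 3.95% in intra-S. Ehhadh (chr16:21761285-21787834), the bifunctional enzyme of the inducible peroxisomal pathway, had 395 and 342 CPM in sham, 68.6 and 127 in intra-C and 35.8 and 47.7 in intra-S livers. It fell 3.76-fold (log2 fold change -1.91, SE 0.34, adjusted p = 0.030) and 8.83-fold (-3.14, SE 0.36, adjusted p = 0.0078). Acaa1b and Acaa1a encode peroxisomal 3-ketoacyl-CoA thiolases and lie 183.9 kb apart on chromosome 9. Acaa1b (chr9:119148043-119157093) had 977 and 737 CPM in sham, 26.3 and 70.9 in intra-C and 4.93 and 19.2 in intra-S livers, and fell 17.6-fold (-4.14, SE 0.78, adjusted p = 0.033) and 70.8-fold (-6.15, SE 0.85, adjusted p = 0.013). These folds were 12.1 without intra-C liver 1 and 32.1 without intra-C liver 2, and 44.4 without intra-S liver 1 and 174 without intra-S liver 2. Acaa1a (chr9:119341028-119350296) had 194 and 217 CPM in sham, 124 and 159 in intra-C and 40.4 and 141 in intra-S livers and was not called (-0.53, adjusted p = 0.564, and -1.18, adjusted p = 0.197). Per length, Acaa1b stood above Acaa1a in sham livers and below it in all 4 livers with tumors. The TPM ratio of Acaa1b to Acaa1a was 3.71 and 2.50 in sham, 0.155 and 0.328 in intra-C and 0.0898 and 0.10 in intra-S livers. Both are close paralogs and only uniquely mapped reads were counted, so the split of reads between them is uncertain.

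Acad11, an acyl-CoA dehydrogenase, had 267 and 265 CPM in sham, 159 and 227 in intra-C and 73.1 and 121 in intra-S livers, and fell 2.74-fold in intra-S (-1.46, SE 0.31, adjusted p = 0.036), with -0.46 (adjusted p = 0.378) in intra-C. Pex11a, a membrane protein of peroxisome division, had 114 and 78.0 CPM in sham, 49.3 and 79.9 in intra-C and 42.8 and 33.7 in intra-S livers, and fell 2.51-fold in intra-S (-1.33, SE 0.32, adjusted p = 0.049). In intra-C its livers overlapped the sham livers (-0.57, adjusted p = 0.299). Eci2, an enoyl-CoA isomerase, was at -0.24 and -0.52 and was not called. Acox2, the oxidase for branched chains and bile acid intermediates, went the other way in its values, with 118 and 106 CPM in sham, 146 and 156 in intra-C and 203 and 141 in intra-S livers. No tumor liver overlapped the sham livers for Acox2, and its log2 fold changes of 0.42 (SE 0.24, adjusted p = 0.301) and 0.61 (SE 0.24, adjusted p = 0.143) did not pass the test.

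The 4 acyl-CoA thioesterase genes held 3 that fell in both comparisons, Acot1, Acot3 and Acot4, where 2.38% and 3.95% of all genes fell. The medians of the 4 were -2.37 in intra-C and -3.35 in intra-S. All 4 lie in a stretch of 72.5 kb on chromosome 12. For every one of the 4, no liver with a tumor reached the lower sham liver, as for 34% of all genes in intra-C and 30% in intra-S. Acot3 (chr12:84052144-84060400), a peroxisomal thioesterase, had the lowest fitted log2 fold change of the 37 genes in both comparisons. It had 155 and 160 CPM in sham, 0.357 and 6.96 in intra-C and 0.758 and 0.761 in intra-S livers, the lowest of them resting on 14 counts. It fell 43.4-fold in intra-C (-5.44, SE 1.16, adjusted p = 0.044) and 207-fold in intra-S (-7.69, SE 1.31, adjusted p = 0.021). The fold in intra-C rested on both livers, at 22.6 without intra-C liver 1 and 431 without intra-C liver 2. Acot4 (chr12:84037254-84044723), the peroxisomal thioesterase for dicarboxylic acids, had 69.8 and 70.6 CPM in sham, 8.40 and 17.0 in intra-C and 3.88 and 7.90 in intra-S livers. It fell 5.53-fold (-2.47, SE 0.45, adjusted p = 0.031) and 11.9-fold (-3.57, SE 0.47, adjusted p = 0.011), the latter 18.1-fold without intra-S liver 2. Acot1 (chr12:84009502-84017670), the cytosolic enzyme, had 15.9 and 7.61 CPM in sham, 1.66 and 3.25 in intra-C and 1.08 and 1.59 in intra-S livers. It fell 4.81-fold (-2.27, SE 0.51, adjusted p = 0.049) and 8.76-fold (-3.13, SE 0.53, adjusted p = 0.021), with sham livers that differed from each other as well, and these folds were 3.10 and 5.65 without sham liver 1. Acot2, the mitochondrial enzyme, had 17.4 and 15.6 CPM in sham, 1.04 and 10.3 in intra-C and 3.03 and 1.57 in intra-S livers. It was not called by edgeR at -1.55 (SE 0.90, adjusted p = 0.320) and -2.84 (SE 0.95, adjusted p = 0.105), whereas DESeq2 called it lower in intra-S. Acot1 and Acot2 are close paralogs, so their counts are uncertain in the same way. The TPM ratio of Acot3 to Acot4 was 2.96 and 3.00 in sham, 0.0563 and 0.544 in intra-C and 0.259 and 0.128 in intra-S livers, below 1 in all livers with tumors.

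**Figure D3:**
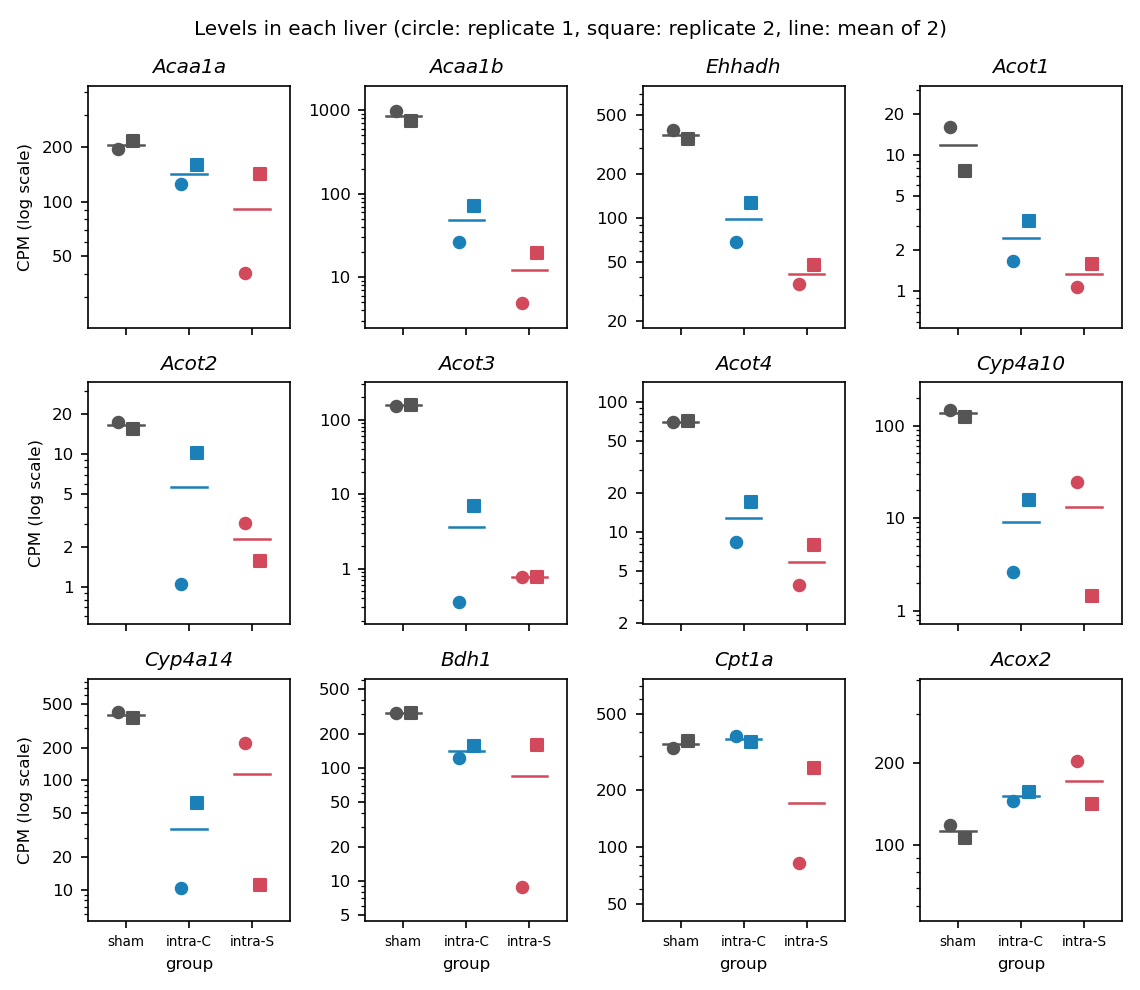
CPM on a log scale (y axis, a range of its own in each panel) of 12 of the genes in the 6 livers by group (x axis), with circles for liver 1, squares for liver 2 and a line at the mean of both. Acaa1b, Ehhadh, Acot3 and Acot4 lie apart from sham in every liver with a tumor. The intra-S livers lie farthest from each other for Bdh1, Cyp4a10 and Cyp4a14, and 3.16 to 3.90 times apart for Cpt1a, Acaa1a and Acaa1b.

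Of the 4 genes of uptake, activation and storage, 1 fell by edgeR, Acsl1 in intra-S livers, where 3.95% of all genes fell. DESeq2 called Acsl1 lower in both comparisons and Fabp1 in intra-S, where 6.78% and 8.95% of all genes were lower. Acsl1, the main hepatic acyl-CoA synthetase of long chains, had 671 and 607 CPM in sham, 232 and 316 in intra-C and 301 and 165 in intra-S livers, and fell 2.75-fold in intra-S (-1.46, SE 0.34, adjusted p = 0.044), with -1.22 (SE 0.33, adjusted p = 0.079) in intra-C. Fabp1, the fatty acid binding protein of the liver, was the most abundant member, with 12750 ± 2215 TPM in sham livers (SD, n = 2). It had 2544 and 3266 CPM in sham, 837 and 1191 in intra-C and 406 and 1626 in intra-S livers. All 4 values were below sham, and with intra-S livers that differed 4.0-fold its log2 fold change of -1.52 in both comparisons did not pass the test (SE 0.61, adjusted p = 0.173 and 0.154). Plin2, which coats lipid droplets, had 277 and 321 CPM in sham, 111 and 456 in intra-C and 106 and 145 in intra-S livers, so that the intra-C livers lay on both sides of sham (-0.08, adjusted p = 0.950) and the intra-S livers below it (-1.25, adjusted p = 0.216). Cd36, a fatty acid receptor that macrophages and endothelial cells also express, had 22.2 and 11.8 CPM in sham, 11.9 and 17.4 in intra-C and 26.2 and 13.7 in intra-S livers, which overlapped throughout.

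The omega-oxidation genes Cyp4a10 and Cyp4a14 lie 22.1 kb apart on chromosome 4 and were not called in either comparison, with wide errors. Cyp4a10 had 147 and 125 CPM in sham, 2.62 and 15.7 in intra-C and 24.8 and 1.42 in intra-S livers. Cyp4a14 had 427 and 372 CPM in sham, 10.4 and 62.2 in intra-C and 219 and 11.0 in intra-S livers. Every liver with a tumor was below sham for both genes, as for 34% of all genes in intra-C and 30% in intra-S. Their log2 fold changes were -3.89 (SE 1.35, adjusted p = 0.130) and -3.46 (SE 1.38, adjusted p = 0.170) in intra-C and -3.38 (SE 1.31, adjusted p = 0.144) and -1.80 (SE 1.29, adjusted p = 0.393) in intra-S. Within a liver both were low or high together, intra-C liver 1 and intra-S liver 2 being the lowest for both. The TPM ratio of Cyp4a14 to Cyp4a10 was 1.83 and 1.88 in sham, 2.51 and 2.50 in intra-C and 5.58 and 4.89 in intra-S livers. Close paralogs may take part of these reads.

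The ketone body and fuel genes passed the test in neither comparison. Bdh1, which interconverts acetoacetate and beta-hydroxybutyrate, had 311 and 310 CPM in sham, 124 and 158 in intra-C and 8.89 and 162 in intra-S livers. Both tumor groups were below sham, with 1 intra-S liver 18.2 times lower than the other, and the log2 fold changes were -1.14 (SE 1.05, adjusted p = 0.531) and -1.86 (SE 1.07, adjusted p = 0.293). Pdk4, the kinase that turns off pyruvate dehydrogenase in fasting, had 52.8 and 14.9 CPM in sham, 58.1 and 85.5 in intra-C and 116 and 19.2 in intra-S livers, and the sham livers themselves differed 3.55-fold, the widest gap of the 37 genes in sham. Its log2 fold changes were 1.08 (SE 0.88, adjusted p = 0.475) and 1.0 (SE 0.88, adjusted p = 0.485). Vnn1, a pantetheinase, had 2.56 and 5.14 CPM in sham, 3.85 and 12.5 in intra-C and 2.68 and 22.5 in intra-S livers, with liver 2 above liver 1 in each group and log2 fold changes of 1.08 (SE 0.99, adjusted p = 0.526) and 1.71 (SE 1.0, adjusted p = 0.300).

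Summed over all 37 genes, the level was 19880 and 22668 TPM in sham, 6663 and 9608 in intra-C and 4372 and 10028 in intra-S livers, which is 1.99% and 2.27%, 0.666% and 0.961%, and 0.437% and 1.00% of all TPM. Fabp1 was the largest part of each sum. Without Fabp1 the sums were 8696 and 8352 TPM, 3539 and 4863, and 2970 and 4014, and no liver with a tumor reached the lower sham liver. The thioesterases summed to 177 and 166 TPM in sham, 6.65 and 25.5 in intra-C and 5.55 and 6.99 in intra-S livers, while mitochondrial beta-oxidation summed to 3392 and 3380, 1599 and 2071, and 1352 and 1970. The share of TPM moves with every other gene in the library, and acute phase RNA, summed over 18 genes, went from 23550 and 24757 TPM in sham to between 112886 and 227897 in the livers with tumors. Its part in these sums was not tested.

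**Figure D4:**
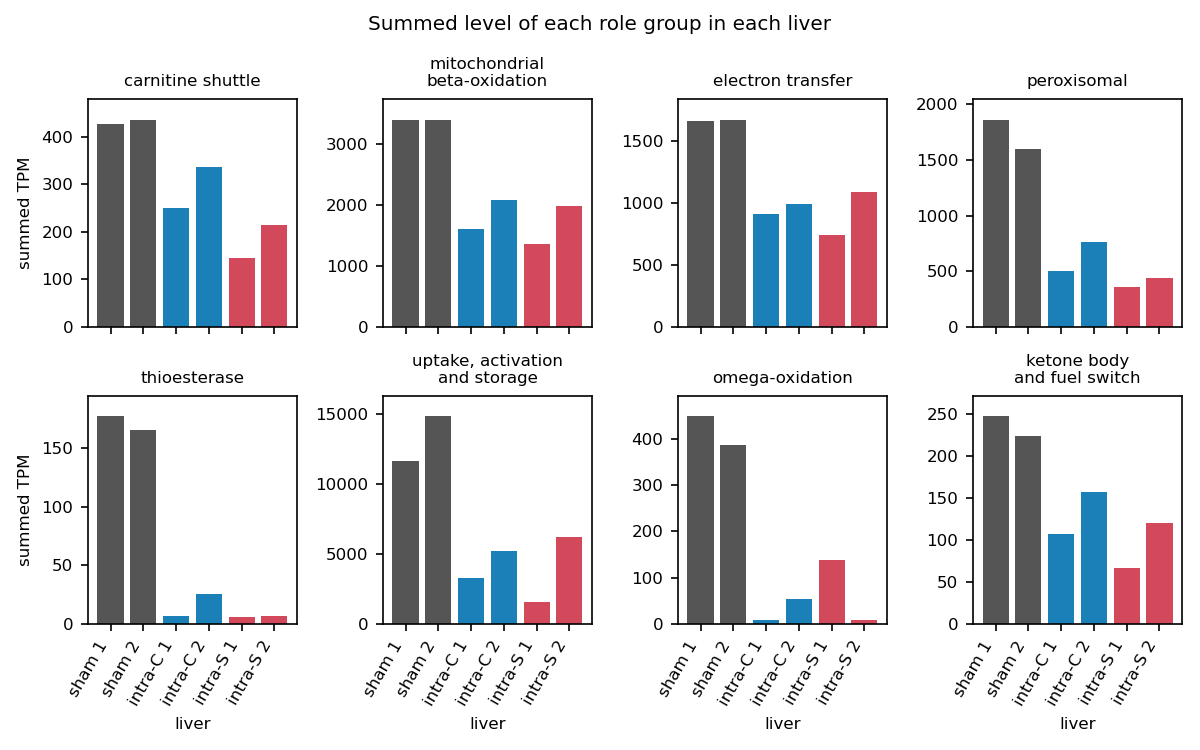
Summed TPM (y axis from 0, a range of its own in each panel) of the genes of each of the 8 roles in each of the 6 livers (x axis). In the thioesterase panel the livers with tumors reach at most 25.5 against 166 and 177 in sham, and in the omega-oxidation panel intra-S liver 1 stands out from the other livers with tumors at 138.

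In the direct comparison of both tumor groups, 0 of the 37 genes passed the test in either direction, as did 0% of all genes upward and 0% downward. At an unadjusted p under 0.05, edgeR gave 1 higher and 4 lower members in intra-S than in intra-C livers, against 6.99% and 6.41% of all genes, and DESeq2 called 1 member lower, Ehhadh (-1.23, adjusted p = 0.038), against 1.88% of all genes. These counts are near the background. In the edgeR fit the 4 lower were Ehhadh at -1.23 (SE 0.34), Acaa1b at -2.00 (SE 0.71), Acad11 at -0.99 (SE 0.31) and Acot4 at -1.10 (SE 0.44), and the higher gene was Hadhb at 0.57 (SE 0.20). Both intra-S livers were below both intra-C livers for 8 members, Cpt1a, Acads, Ehhadh, Acaa1b, Acad11, Pex11a, Acot1 and Acot4, and above them for 3, Acadl, Hadhb and Etfa. Over all genes these shares were 21.5% and 21.9%. The median log2 fold change of the members was -0.24, against 0.03 over all tested genes. It rested on single livers, at 0.08 without intra-C liver 2, -0.44 without intra-C liver 1 and -0.46 without intra-S liver 2.

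The livers with tumors differed more within a group than the sham livers did. The median fold between both livers of a group over the 37 genes was 1.05 in sham, 1.44 in intra-C and 1.65 in intra-S, whereas over the 7261 genes at or above 10 CPM it was 1.09, 1.14 and 1.36. In intra-C, liver 1 was the lower liver in 33 of the 37 genes, with the widest gap in Acot3 (19.5-fold). In intra-S the order of the livers differed between genes. Liver 1 was lower for Bdh1 (18.2 times), Acaa1b (3.90), Acaa1a (3.50), Cpt1a (3.16), Fabp1 (4.0) and Vnn1 (8.37), and liver 2 for Cyp4a14 (19.9 times), Cyp4a10 (17.4) and Pdk4 (6.05). With intra-S liver 2 left out, 11 members were lower and 1 was higher in intra-S than in intra-C, where 9.02% and 7.53% of all genes were, among the members Bdh1 at -3.99 and Cpt1a at -2.16. With intra-S liver 1 left out, none was.

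**Figure D5:**
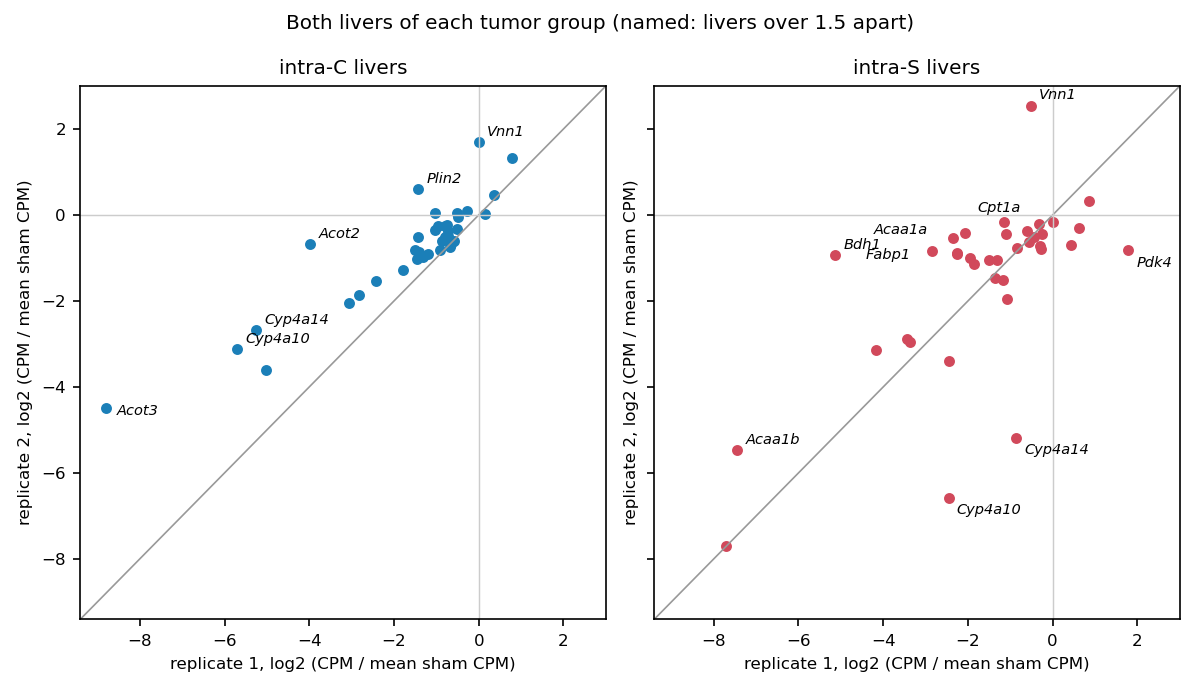
Liver 1 (x axis) against liver 2 (y axis) of the intra-C group (left) and the intra-S group (right), each point 1 of the 37 genes as log2 of its CPM over the mean sham CPM, with the line of equality and the names of genes whose livers lie over 1.5 apart. In intra-C nearly all points lie above the line, and in intra-S they lie on both sides, with Bdh1 far above and Cyp4a10 and Cyp4a14 far below it.

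In lists of other genes of the same pathways, most genes that passed the test were lower. Over 108 tested genes of 6 lists, 17 fell and 3 rose in intra-C and 28 fell and 2 rose in intra-S, with medians of -0.49 and -0.82, where 2.38% and 3.95% of all genes fell and 4.92% and 6.78% rose. In the lists that follow, 1 gene called in a direction is near these shares. Of 25 other mitochondrial genes, 5 fell in intra-C, and 6 fell in intra-S. Mcee (-1.13 and -1.13), Mlycd (-1.05 and -1.15) and Acad10 (-1.04 and -1.63) fell in both, Hsd17b10 (-0.95) and Echs1 (-0.89) in intra-C, and Acacb (-2.18), which makes the malonyl-CoA that inhibits Cpt1a, Slc22a5 (-1.50), the carnitine transporter, and Slc27a5 (-1.19) in intra-S. Of 24 other peroxisomal genes, 5 fell in intra-C and 8 in intra-S. All 24 had both intra-S livers below both sham livers, as had 30% of all genes. Cat, the catalase that removes peroxisomal hydrogen peroxide, had 2517 and 2253 CPM in sham, 697 and 796 in intra-C and 243 and 441 in intra-S livers (-1.68 and -2.80). Abcd3, which imports acyl-CoA (-1.23 and -1.80), Pecr (-1.25 and -1.92) and Decr2 (-1.43 and -1.43) fell in both, Pxmp2 (-1.01) in intra-C, and Hacl1 (-1.57), Eci3 (-2.41) and Pex7 (-0.97) were among those that fell in intra-S.

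Of 9 other thioesterase and related genes, 1 fell in intra-C, Acot13 (-1.55), and 4 fell in intra-S, Acot8 (-1.74), Acot13 (-1.28), Baat (-1.21), which conjugates bile acids, and Acot7 (-1.12). Of 8 other ketone body genes, Oxct1, which uses ketone bodies outside hepatocytes, rose in both from 3.08 and 4.62 CPM in sham to 11.3 and 12.4 in intra-C and 7.90 and 13.6 in intra-S livers (1.62 and 1.48), Aacs fell in intra-C (-1.32) and Bdh2 in intra-S (-2.95).

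Among 20 genes of PPARα and its partners, 1 rose in intra-C, Ncor1 (1.07), and 2 fell in intra-S, Ppara and Sirt3, against 4.92% and 3.95% of all genes, so that the count in intra-C is near the background. Ppara had 243 and 226 CPM in sham, 149 and 242 in intra-C and 91.2 and 88.6 in intra-S livers, and fell in intra-S (-1.38, adjusted p = 0.030), whereas intra-C overlapped with sham (-0.26, adjusted p = 0.575). Sirt3, the mitochondrial deacetylase, was at -1.0 in intra-S (adjusted p = 0.048). Of 22 other known PPARα targets, 5 fell and 1 rose in intra-C and 7 fell and 1 rose in intra-S. Krt23 (-5.32 and -6.28), Aldh3a2 (-2.21 and -2.97), Mgll (-1.43 and -2.08), Cyp4f14 (-1.18 and -2.82) and Cyp4f15 (-0.93 and -1.29) fell in both, Fads2 (-2.97) and Retsat (-2.24) in intra-S, and Ucp2, which neutrophils and macrophages also express, rose in both (2.27 and 2.44). Krt23 was at 0 counts in intra-S liver 1, so its size there depends on the fit.

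Of 17 hepatocyte markers tested, 1 rose and 1 fell in intra-C (4.92% and 2.38% of all genes) and 3 rose and 2 fell in intra-S (6.78% and 3.95%), counts too small to set the list apart from other genes, with medians of -0.27 and 0.20, and their summed level was 173739 and 170696 TPM in sham, 184252 and 151537 in intra-C and 209132 and 184353 in intra-S livers. Alb alone takes a large share of that sum. Myeloid markers moved with the tumor groups: 13 and 12 of 14 macrophage genes and 12 and 13 of 13 neutrophil genes rose, and their sums went from 372 and 387 to between 1075 and 1852 TPM and from 10.3 and 14.8 to between 905 and 3263 TPM. For these lists and those that follow, 4.92% and 6.78% of all genes rose, and 1 gene called in a list is near these shares. Of 9 erythroid genes 8 rose in intra-S, from 834 and 1496 to 4826 and 3678 TPM in sum, and 0 rose in intra-C. Of 12 endothelial genes 5 rose in each comparison, from 108 and 120 to between 205 and 264 TPM in sum, and of 11 T and B cell genes 0 were called by edgeR (2 lower in intra-C and 2 higher in intra-S at an unadjusted p under 0.05), with sums of 11.9 and 14.0 TPM in sham and 8.97 to 23.2 in the livers with tumors. Only 3 of 8 adipocyte genes were listed. Car3, which hepatocytes also express, went from 1997 and 1619 TPM in sham to between 0.671 and 93.7, and was called lower in intra-S, whereas Cidea rose in both comparisons and Fabp4 in intra-S, where it reached 287 and 60.7 TPM from 11.9 and 9.68 in sham. Of 10 stellate cell and fibroblast genes 0 and 3 rose by edgeR, and of 6 cholangiocyte genes 0 and 1 (in intra-C 0 and 2 were higher at an unadjusted p under 0.05), the latter with sums of 20.5 and 25.9 TPM in sham, 74.9 and 120 in intra-C and 23.6 and 209 in intra-S livers. The part of these cells in the members' changes was not tested.

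Promoter windows were looked up because PPARα binds, with its partner RXR, a direct repeat of AGGTCA with 1 base between (AGGTCANAGGTCA, called DR1, searched on both strands). RefSeq windows (GRCm38.p6, the assembly of mm10, 250 bases before to 50 after a transcript start) were at hand for 31 of the 37 genes, in 35 windows. Decr1, Vnn1, Cyp4a14, Cyp4a10, Crat and Acaa2 had no window here. An exact DR1 was in 0 of the 35 windows and in 0.0396% of all 32851 windows, and with up to 1 mismatch in 1 of 35, that of Fabp1, and in 0.554% of all. Allowing 2 mismatches, a limit chosen after these counts were seen, 7 of 35 windows (20.0%) held a match, against 3.86% of all windows, those of Fabp1, Acot4, Plin2, Cd36, Etfa, Slc25a20 and Acox2. Of these 7 genes only Acot4 was called in either comparison. AGGTCA alone, also counted after those searches were seen, was in 25.7% of the members' windows and 16.3% of all. The windows of Fabp1 and Acot4 are shown for their matches, which are in capitals and start at -67 and -13 from the start that the window is built on. That start is the first base of Fabp1, whereas for Acot4 and Acaa1a it lies inside the gene as its coordinates are given above. Those of Acot3, Acaa1b and Acaa1a are shown because Acot3 and Acaa1b fell most and Acaa1a is the neighbor that was not called, and they hold no DR1 with up to 2 mismatches, although AGGTCA alone is in the window of Acot3. Each is written 5′ to 3′ on the strand given.
Fabp1 (chr6:71199629-71199928, + strand): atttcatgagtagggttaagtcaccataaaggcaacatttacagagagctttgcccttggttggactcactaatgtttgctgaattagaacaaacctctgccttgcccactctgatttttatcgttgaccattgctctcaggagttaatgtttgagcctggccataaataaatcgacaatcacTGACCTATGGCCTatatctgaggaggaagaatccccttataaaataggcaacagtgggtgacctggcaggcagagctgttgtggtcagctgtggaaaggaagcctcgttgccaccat
Acot4 (chr12:84038129-84038428, + strand): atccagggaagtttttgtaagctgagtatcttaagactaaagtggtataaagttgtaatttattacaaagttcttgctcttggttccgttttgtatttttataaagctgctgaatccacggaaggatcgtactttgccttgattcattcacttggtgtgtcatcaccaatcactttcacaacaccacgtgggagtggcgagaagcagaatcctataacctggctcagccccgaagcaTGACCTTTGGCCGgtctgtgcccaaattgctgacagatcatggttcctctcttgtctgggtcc
Acot3 (chr12:84051894-84052193, + strand): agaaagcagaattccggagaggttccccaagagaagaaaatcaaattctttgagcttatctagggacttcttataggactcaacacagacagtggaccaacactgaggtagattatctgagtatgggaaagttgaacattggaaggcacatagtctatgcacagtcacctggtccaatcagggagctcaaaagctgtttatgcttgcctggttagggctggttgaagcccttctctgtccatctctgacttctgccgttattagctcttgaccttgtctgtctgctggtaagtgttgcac
Acaa1b (chr9:119157044-119157343, - strand): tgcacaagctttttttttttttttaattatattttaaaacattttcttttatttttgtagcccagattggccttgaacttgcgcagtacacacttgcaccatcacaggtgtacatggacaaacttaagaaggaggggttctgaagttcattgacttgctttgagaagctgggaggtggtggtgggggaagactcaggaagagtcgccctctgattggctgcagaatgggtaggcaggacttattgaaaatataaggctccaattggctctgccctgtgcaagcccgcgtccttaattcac
Acaa1a (chr9:119341044-119341343, + strand): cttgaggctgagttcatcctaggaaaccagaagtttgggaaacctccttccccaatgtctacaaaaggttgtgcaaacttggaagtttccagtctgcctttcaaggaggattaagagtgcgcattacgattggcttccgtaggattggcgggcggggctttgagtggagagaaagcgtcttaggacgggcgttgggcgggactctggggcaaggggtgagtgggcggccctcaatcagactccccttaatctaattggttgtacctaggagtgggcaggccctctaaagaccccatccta
A match to these letters is a description of the window and not a site shown to bind, and the lack of a DR1 match says only that these letters are not in that window.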

How the data were processed

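The authors aligned the reads with HISAT2 2.1.0 to mm10, counted uniquely mapped reads on exons with featureCounts (Subread 2.0.6) and deposited raw counts per gene, and deposited TPM values made from them. The annotation and the use of strand are not given in the sources used here. Every column was tied to 1 liver through its name. From there, counts were tested in R 4.3.3 with edgeR 4.0.16 (quasi-likelihood test, TMM, filterByExpr with a count minimum of 10, 1 fit over 6 livers), adjusted by Benjamini-Hochberg over 16370 genes, with a threshold of 0.05. The standard error (SE) is the log2 fold change over the root of the F statistic. The study's methods state no test for genes of these livers. The test was tested on simulated data. The p-values use a spread estimated over all 6 livers and with the help of other genes, not only that of the livers compared. With 2 livers a group, no permutation test could pass 0.05. Depth was 32838321 to 43368309 counts per liver, so that 3 counts, the limit a count of 0 allows, are 0.0679 to 0.0928 CPM. This covers counting error only.

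The members and gene lists were chosen with earlier results of these data known. Named are every member and, from the 6 pathway lists, the called genes, at most 8 per list and comparison by size of log2 fold change, and Ppara. Some genes that this rule covers are not reported here. Other settings tried were a fit of only 2 groups, a replicate block, DESeq2 1.42.0, a filter of 10 counts in every liver or none, library size in place of TMM, TMM after removal of the 100 most abundant genes, limma 3.58.1 on log2(TPM + 1) and log2(TPM + 0.1), edgeR with a robust spread, and each liver left out. Promoter windows were searched with Python 3.11.15.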

Additional observations from a re-analysis of the deposited data

How the results depend on the processing

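Of the 37 log2 fold changes in each comparison with sham, 32 kept their direction under every alternative in intra-C and 32 in intra-S, and 29 did so in both. The scaling moved the median of all genes by up to -0.26 in intra-C and -0.30 in intra-S, and relative to it the members' median was between -0.77 and -0.66 and between -1.40 and -1.21. The number of lower members in intra-C (6) was 12 with DESeq2, 10 with limma on log2(TPM + 0.1) and 22, with 1 higher (Acox2), when only the 2 groups were fitted. With no filter it was 5, without Acads. It ranged from 0 to 22 with a liver left out, and the number of higher members from 0 to 1. It was 0 without either sham liver and 1, Acot3, without either intra-C liver. In intra-S (10 lower) it was 17 with DESeq2 and 6 with only the 2 groups (5 of the 10, and Acot2), and with a liver left out 0 to 21 lower and 0 to 1 higher. In the direct comparison DESeq2 gave 1 lower, and with a liver left out there were 0 to 11 lower and 0 to 1 higher.

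With a replicate block the lower members were 4 in intra-C and 10 in intra-S, 8 of them the same. Acads and Acot1 were lost in intra-C and Pex11a and Acsl1 in intra-S, where Eci1 and Decr1 were added. The deviations of livers with the same number correlated at -0.04 (sham and intra-C), 0.12 (sham and intra-S) and 0.08 (intra-C and intra-S). With so few livers in a group, these values cannot show whether livers with the same number shared a batch, which the labels do not state.

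Cpt1a in intra-C turned to -0.17 with library size without TMM and -0.10 and -0.10 with limma on log2(TPM + 1) and log2(TPM + 0.1). Cd36 in intra-S turned to -0.0614, -0.0589 and -0.0639 there. With a liver left out, the values that turned ranged in intra-C for Cd36 -0.60 to 0.32, Plin2 -1.41 to 0.61, Crat -1.01 to 0.059 and Hadha -0.26 to 0.089, and in intra-S for Crat -0.70 to 0.44, Cd36 -0.30 to 0.77, Pdk4 -0.82 to 2.19, Hadhb -0.17 to 0.018 and Vnn1 -0.52 to 2.54. The cause was not tested. The DR1 search gave 0 member genes exact, 1 with up to 1 mismatch and 7 with up to 2. Depth limits Acot3 most, whose lowest liver had 14 counts. The wide gaps between livers limit Bdh1, Cyp4a10, Cyp4a14, Pdk4 and Vnn1.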
